A study of Mus musculus with 8 samples.

Results

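A list of 38 skeletal muscle genes was followed in mouse uteri with and without a conditional deletion of *Ezh2*. The list was chosen by known function around *Myh3*, which had itself been selected on its measured rise in these same libraries, so the values of *Myh3* are given as a description without a p-value. All 38 genes were found among the 27179 genes counted. Of these, 23 were among the 16658 genes that passed a filter on low counts and were tested. The other 15 were under the filter, and 3 of them (*Pax3*, *Pax7* and *Chrng*) had no count in any library.

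Skeletal muscle is built from long multinucleate fibres whose contractile unit, the sarcomere, slides myosin filaments along actin filaments, under the control of troponin and of calcium released from internal stores. The fibres form in the embryo when transcription factors of the MYOD family, chiefly MYOD1 and MYF5, commit precursor cells that express *Pax3* or *Pax7*, and myogenin (*Myog*) then drives them to fuse and to switch on sarcomere genes. Newly formed fibres carry embryonic and perinatal myosin heavy chains (*Myh3* and *Myh8*) and the cardiac form of actin (*Actc1*), and replace them with adult myosins (*Myh1*, *Myh2*, *Myh4* and *Myh7*) as they mature. The uterus has a smooth muscle coat, the myometrium, which uses other actin and myosin genes, and skeletal muscle is not a usual component of its wall.

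RNA was taken from whole uteri of 8 mice at postnatal day 10 (PD10), with 1 library per mouse. All 8 mice were homozygous for a floxed *Ezh2* allele (*Ezh2* f/f) on a C57BL/6/129SvEv background. *Ezh2* encodes the methyltransferase of Polycomb repressive complex 2 (PRC2), which places the repressive mark H3K27me3 on histones. The 4 control mice (Ctrl) had no Cre recombinase, whereas the 4 conditional knockout mice (*Ezh2 Amhr2*-Cre cKO) also carried *Amhr2*-Cre, which is active in the mesenchyme of the Müllerian duct and in cells derived from it, so epithelial and other cells without Cre kept the allele. Libraries were prepared with the TruSeq stranded mRNA kit. Reads had been aligned to GRCm38, counted per gene by the authors and deposited as raw counts. Expression is given as counts scaled to library size (CPM, per 1000000 counts), scaled between libraries by the TMM method of edgeR, as the mean ± SD of the 4 libraries per genotype. Log2 fold changes compare cKO with Ctrl and carry a standard error (SE). Adjusted p-values come from edgeR's quasi-likelihood test with Benjamini-Hochberg adjustment over all genes tested. A gene was called differentially expressed (DE) where its adjusted p-value was under 0.05 and its level changed more than 2-fold.

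The libraries held 26234429 to 36685807 counts in Ctrl and 25287141 to 32658315 in cKO. Where no read was counted, up to 3 counts cannot be told from 0, which is 0.0824 to 0.117 CPM and covers counting error only. *Ezh2* was at 45.0 ± 8.70 CPM in Ctrl and 36.8 ± 4.41 CPM in cKO (SD, n = 4 each), with a log2 fold change of -0.29 (SE 0.13, edgeR adjusted p = 0.247); its counts span the whole gene and the whole uterus, and so do not measure the deleted exons. The smooth muscle genes that define the myometrium were abundant in all 8 libraries, with *Acta2* (smooth muscle actin) at 3332 to 4287 CPM in Ctrl and 3443 to 4064 CPM in cKO. None of the 17 smooth muscle genes tested was DE by edgeR, DESeq2 or limma-voom, and their median log2 fold change was 0.07. An unadjusted p-value under 0.05 in edgeR was reached by 3 of the 17, against 21.2% of all genes. The summed level of 6 adipocyte genes was above the Ctrl range in cKO 1, cKO 2 and cKO 3 and within it in cKO 4, and their values stand beside the muscle genes below.

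*Myog*, *Myod1*, *Myl1*, *Myh3* and *Actc1*, a set put together after the values were seen, were higher in every cKO library than in every Ctrl library, from low levels. The same separation held for *Mylpf*, *Actn3*, *Tnnt3*, *Tnni1*, *Tnnc2*, *Casq1* and *Ryr1*, whose values are given below. Of the other genes of embryonic or fetal muscle, *Myl4* overlapped between genotypes and *Chrng* had no count. *Myh8* had 9 counts in all of Ctrl and 56 in all of cKO, and its genotypes overlapped through cKO 3 alone. Genes of fast fibres differed in level. *Myh1*, *Myh2*, *Myh4* and *Pvalb* were at or near a count of 0 in both genotypes, and *Myl1* had no count in Ctrl. *Tnnc2* was between 0.143 and 0.412 CPM in Ctrl and between 0.455 and 1.00 CPM in cKO. *Casq1*, *Tnni2*, *Tnnt3*, *Actn3*, *Mylpf* and *Mybpc2* were above 1 CPM in all 8 libraries. Of these, 3 (*Casq1*, *Tnnt3* and *Actn3*) were higher in cKO with an edgeR adjusted p-value under 0.05. *Tnnc2* and the genes named here as above 1 CPM all had log2 fold changes above 0, from 0.09 (*Mybpc2*) to 1.29 (*Tnnc2*). *Pax3*, *Pax7* and *Myf5*, of muscle precursor cells, were at or near a count of 0.

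Apart from *Myh3*, 22 of the genes were tested, and 1 of them was DE, *Actc1*, which was higher in cKO. Over all genes tested, 1.30% were DE in either direction and 0.666% were DE and higher in cKO. An adjusted p-value under 0.05 was reached by 4 of the 22 (*Actc1*, *Casq1*, *Tnnt3* and *Actn3*), against 5.34% of all genes, and an unadjusted p-value under 0.05 by 11, against 21.2% of all genes. Every cKO library lay above every Ctrl library for 8 of the 22, against 5.90% of all genes tested. *Myh3* was past both thresholds as well, but its rise had chosen the list, and it passed the filter through its cKO libraries alone, so it could enter a count only by differing. With it the counts are 2, 5, 12 and 9 of 23, and nothing is read from its share in them. In whole uterus RNA, a larger number of cells of one type and more RNA per cell cannot be told apart.

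**Figure D1:**
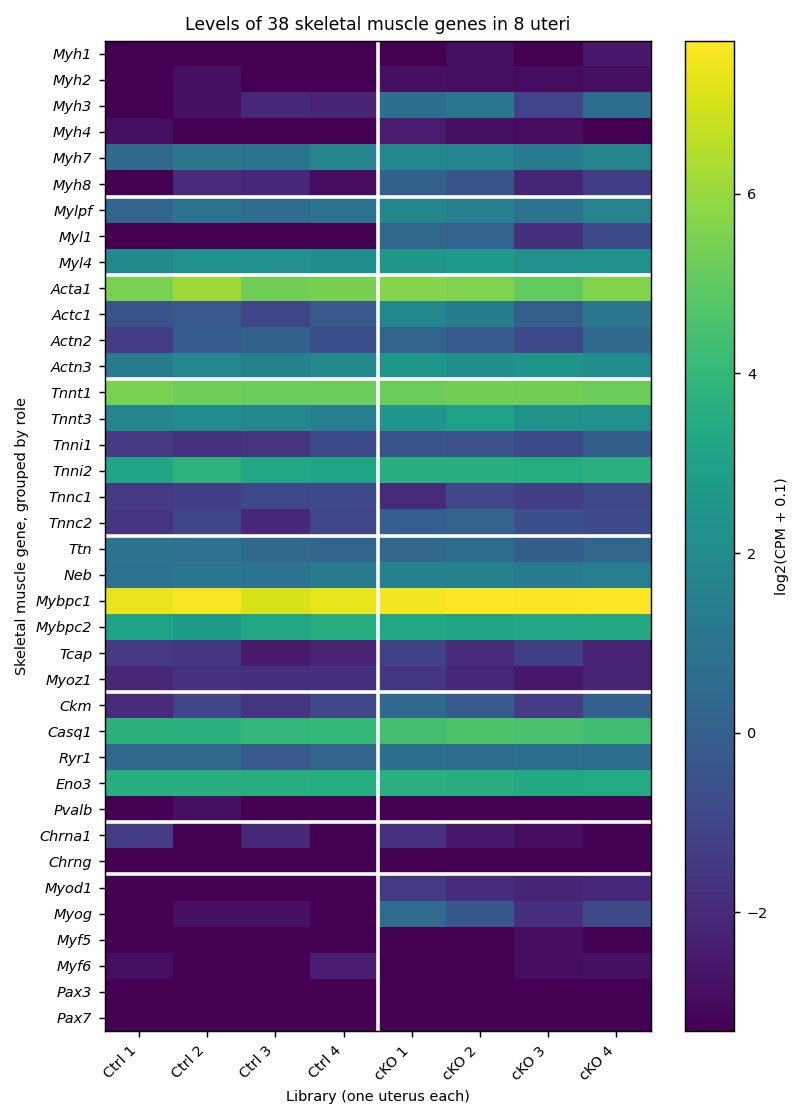
Levels of the 38 skeletal muscle genes (rows, grouped by role) in the 8 uteri (columns, 1 library per mouse), coloured by log2(CPM + 0.1). The rows of *Myh3*, *Myl1*, *Myod1* and *Myog* are dark in all 4 Ctrl libraries and lighter in cKO, whereas the rows of *Mybpc1*, *Acta1* and *Tnnt1* are bright in all 8.

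The count of DE genes among the 38, *Myh3* included, depended on the filter and on single libraries. Without a filter, 35 of the 38 could be fitted and 5 were DE, *Myh3*, *Actc1*, *Myl1*, *Myod1* and *Myog*, or 4 of 34 apart from *Myh3*, against 1.10% of the 21522 genes in that fit. A filter asking for 3 libraries in place of 4 was chosen after seeing the data. With it 4 of 26 tested were DE, now with *Myl1* and *Myog*, against 1.34% of all 16906 genes in that fit. Each library was also left out in turn with the filter asking for 3 libraries, which gave 2 to 6 DE genes of 23 or 26 tested. There were 6 without cKO 3 (*Myog*, *Myl1*, *Myh8* and *Ckm* beside *Myh3* and *Actc1*), against 0.976% of all 16807 genes in that fit. There were 4 without Ctrl 2 (1.33% of all genes), Ctrl 3 (1.00%) or Ctrl 4 (1.21%), 3 without Ctrl 1 (0.867%) or cKO 4 (2.12%), and 2 without cKO 1 (0.840%) or cKO 2 (0.847%). *Myog*, *Myl1* and *Myh8* passed a filter of 3 libraries through cKO libraries alone, so they could be counted only by differing.

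The promoters shown are those of 4 genes that were DE without a filter, so they were chosen on these values. *Myod1* was DE in that fit as well, but no promoter entry was found for it. The 4 are *Myog*, a regulator, and *Myh3*, *Myl1* and *Actc1*, which encode proteins of the young sarcomere. MYOD1 and myogenin bind the E-box, CANNTG, printed in capitals. The sequences are from RefSeq (GRCm38.p6) and run from 250 bases before to 50 after a transcription start, 5′ to 3′ on the strand of the gene. They lie at chr1:134289754-134290053 (plus strand) for *Myog*, chr11:67078050-67078349 (plus strand) for *Myh3*, chr1:66945007-66945306 (minus strand, at a start inside the gene) for *Myl1* and chr2:114052826-114053125 (minus strand) for *Actc1*.
Myog: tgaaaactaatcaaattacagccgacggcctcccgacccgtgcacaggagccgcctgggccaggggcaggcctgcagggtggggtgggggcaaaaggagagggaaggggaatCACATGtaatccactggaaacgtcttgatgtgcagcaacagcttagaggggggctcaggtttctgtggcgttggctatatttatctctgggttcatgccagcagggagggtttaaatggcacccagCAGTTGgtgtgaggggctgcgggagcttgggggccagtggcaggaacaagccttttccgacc
Myh3: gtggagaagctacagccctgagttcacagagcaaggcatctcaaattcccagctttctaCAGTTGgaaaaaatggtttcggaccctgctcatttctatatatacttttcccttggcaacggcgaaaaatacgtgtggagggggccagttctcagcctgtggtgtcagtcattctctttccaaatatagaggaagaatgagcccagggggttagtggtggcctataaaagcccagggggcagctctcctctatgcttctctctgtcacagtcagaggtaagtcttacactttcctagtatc
Myl1: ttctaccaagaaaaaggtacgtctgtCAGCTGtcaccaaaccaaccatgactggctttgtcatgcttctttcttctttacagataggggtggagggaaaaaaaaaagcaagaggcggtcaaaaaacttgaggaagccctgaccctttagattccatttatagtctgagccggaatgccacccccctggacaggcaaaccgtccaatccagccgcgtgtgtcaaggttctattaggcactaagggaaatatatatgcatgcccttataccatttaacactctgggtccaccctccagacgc
Actc1: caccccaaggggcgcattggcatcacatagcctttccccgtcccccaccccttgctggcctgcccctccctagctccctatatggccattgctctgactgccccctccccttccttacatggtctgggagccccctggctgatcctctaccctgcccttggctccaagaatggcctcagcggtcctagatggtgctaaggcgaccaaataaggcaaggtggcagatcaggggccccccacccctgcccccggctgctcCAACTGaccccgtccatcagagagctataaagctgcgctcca

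Each of the 4 windows held an E-box, with 2 in *Myog* and 1 in each of the others. Both strands are covered, since CANNTG reads the same on either. The motif is common: 72.1% of the 27025 promoters of this length in the table held one, and 22 of the 29 promoters found for the 38 genes (75.9%). The window of *Myog* also held TCAGGTT, the MEF3 site bound by SIX-family factors, which occurred on either strand in 3 of the 29 (10.3%) and in 4.0% of all promoters. TATAAA was found on the strand shown in *Myh3* and *Actc1* and on the opposite strand in *Myl1*, and on either strand in 10 of the 29 (34.5%) and in 14.2% of all promoters. The MEF2 box, bound by the MEF2 partners of the MYOD family, was in 5 of the 29 (17.2%) and in 1.9% of all promoters. The 5 were *Myh1*, *Myh4*, *Myh8*, *Ttn* and *Pvalb*, and none of the 4 windows shown held one. The CArG box, bound by serum response factor, was in 3 of the 29 (10.3%) and in 1.6% of all promoters. Both boxes were searched on either strand as exact patterns, so near matches, such as one to the MEF2 box in the *Myog* window, were not counted. The window of *Actc1* held a CArG box. These are matches of letters and not measured binding sites.

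Myogenic transcription factors act at the head of the programme, and 6 of them were listed. *Myog*, which commits myoblasts to differentiate, had counts of 0, 1, 1 and 0 in Ctrl 1 to 4 and 35, 21, 6 and 14 in cKO 1 to 4 (chromosome 1 of GRCm38, 134290004 to 134292548). All 4 cKO counts were above the 4 Ctrl counts, with cKO 3 the lowest. *Myog* was at 0.0186 ± 0.0215 CPM in Ctrl and 0.684 ± 0.498 CPM in cKO (SD, n = 4 each), and over the pooled counts the cKO level was 39.7 times that of Ctrl (95% interval 10.6 to 334.2, counting error only). *Myog* was under the filter because cKO 3 stood at 0.185 CPM, and in the fit without a filter its adjusted p-value was 0.00154 by edgeR.

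*Myod1*, the factor that starts the programme, had counts of 0, 0, 0 and 0 in Ctrl 1 to 4 and 7, 5, 4 and 4 in cKO 1 to 4 (chromosome 7, 46376474 to 46379092). No read was counted in any Ctrl library, and all cKO libraries had a few. With the Ctrl count of 0 set at the limit of 3 counts over the 4 libraries, *Myod1* was at least 6.97-fold higher in cKO, and its adjusted p-value without a filter was 0.0113 by edgeR. *Myf5* and *Myf6*, the remaining members of the MYOD family, did not show this pattern. *Myf5* had 1 count in all, in cKO 3, and *Myf6* had counts of 1, 0, 0 and 3 in Ctrl 1 to 4 and 0, 0, 1 and 1 in cKO 1 to 4. *Pax3* and *Pax7*, which mark the precursor cells of muscle and the satellite cells of adult fibres, had no count in any library, which allows a level of up to 0.0824 to 0.117 CPM.

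**Figure D2:**
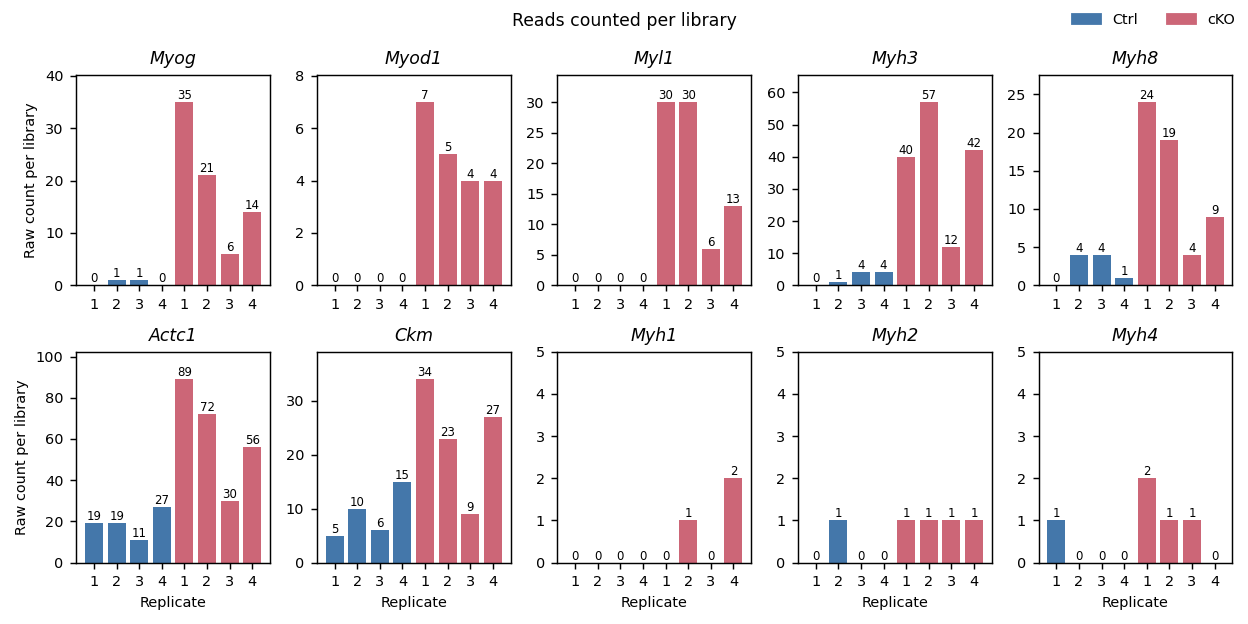
Raw counts per library (bars from 0, the number printed above each) for 10 of the genes, with Ctrl 1 to 4 in blue and cKO 1 to 4 in red. *Myog*, *Myod1*, *Myl1* and *Myh3* have 0 to 4 counts in Ctrl and 4 to 57 in cKO, while *Myh1*, *Myh2* and *Myh4* do not exceed 2 counts in any library.

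Myosin heavy chains are the motors of the thick filament and differ by stage and fibre type. *Myh3* (Entrez 17883, chromosome 11, 67078273 to 67102291, plus strand), the embryonic form, had counts of 0, 1, 4 and 4 in Ctrl 1 to 4 and 40, 57, 12 and 42 in cKO 1 to 4, equal to 0, 0.0387, 0.143 and 0.110 CPM in Ctrl 1 to 4 and 1.55, 1.91, 0.370 and 1.47 CPM in cKO 1 to 4. Every cKO library was above every Ctrl library, and cKO 3 was the lowest of the 4 cKO libraries. *Myh3* was at 0.0728 ± 0.0651 CPM in Ctrl and 1.33 ± 0.665 CPM in cKO (SD, n = 4 each), with a log2 fold change of 4.08 (SE 0.65). The pooled counts gave a ratio of 17.5. Leaving out any one library gave a log2 fold change of 3.67 to 4.53.

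*Myh8*, the perinatal form, lies in the same cluster on chromosome 11 and had counts of 0, 4, 4 and 1 in Ctrl 1 to 4 and 24, 19, 4 and 9 in cKO 1 to 4. The highest 3 values were those of cKO 1, cKO 2 and cKO 4, but cKO 3 was no higher than Ctrl 2 or Ctrl 3, so the genotypes overlapped. Its adjusted p-value without a filter was 0.0610 by edgeR. The adult fast chains had few reads or none. *Myh1* had counts of 0, 0, 0 and 0 in Ctrl 1 to 4 and 0, 1, 0 and 2 in cKO 1 to 4, *Myh2* had counts of 0, 1, 0 and 0 in Ctrl 1 to 4 and 1, 1, 1 and 1 in cKO 1 to 4 and *Myh4* had counts of 1, 0, 0 and 0 in Ctrl 1 to 4 and 2, 1, 1 and 0 in cKO 1 to 4. The longest coding transcripts of *Myh1*, *Myh2*, *Myh4* and *Myh8* share 18.9% to 26.9% of their stretches of 50 bases with another gene, chiefly one another, so their counts are uncertain. *Myh3* shares 4.81%, most of it with *Myh13*, which had 0 to 2 counts in each library.

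*Myh7*, the chain of slow fibres and of heart, was present in both genotypes at 1.29, 1.97, 1.86 and 2.94 CPM in Ctrl 1 to 4 and 3.38, 3.08, 2.28 and 3.01 CPM in cKO 1 to 4. The genotypes overlapped, with a log2 fold change of 0.53 (SE 0.23, edgeR adjusted p = 0.213). *Myh7* shares 22.2% of its stretches of 50 bases with *Myh6*, the atrial chain, so reads may be divided between them.

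The genes around *Myh3* were read as well. Within 500000 bases of its ends lie 10 other protein-coding genes, of which 4 were tested. None of the 4 was DE by edgeR, DESeq2 or limma-voom. An unadjusted p-value under 0.05 in edgeR was reached by 1 of the 4, against 21.2% of all genes. *Tmem220* was at a log2 fold change of 0.26, *Adprm* at -0.11, *Sco1* at -0.11 and *Gas7* at -0.27 (adjusted p = 0.0480 by edgeR, under the 2-fold threshold). The 6 under the filter were *Pirt*, *Myh13* and the chains *Myh1*, *Myh2*, *Myh4* and *Myh8*.

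Myosin light chains bind the neck of the heavy chain. *Myl1*, the essential light chain of fast fibres, had counts of 0, 0, 0 and 0 in Ctrl 1 to 4 and 30, 30, 6 and 13 in cKO 1 to 4 (chromosome 1, 66924295 to 66947932). No read was counted in Ctrl, all cKO libraries had at least 6, and cKO 3 was again the lowest. *Myl1* was at 0.702 ± 0.460 CPM (SD, n = 4) in cKO, at least 27.5-fold higher than the limit of 3 counts over the 4 Ctrl libraries, and its adjusted p-value without a filter was 0.00504 by edgeR. A pseudogene, *Mylf-ps*, shares 23.4% of the stretches of 50 bases of *Myl1*.

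*Mylpf*, the regulatory light chain of fast fibres, was at 1.10, 1.70, 1.39 and 1.65 CPM in Ctrl 1 to 4 and 3.26, 2.51, 1.73 and 2.84 CPM in cKO 1 to 4. Each cKO library was above each Ctrl library, by a small margin for cKO 3. Its log2 fold change of 0.82 (SE 0.23, edgeR adjusted p = 0.0577) did not pass the threshold. The adjusted p-value of *Mylpf* was 0.0464 by edgeR without a filter, 0.0206 by DESeq2 and 0.0859 by limma-voom. *Myl4*, the light chain of embryonic muscle and of atria, was at 3.66, 4.87, 4.71 and 4.42 CPM in Ctrl 1 to 4 and 5.55, 5.99, 4.62 and 4.87 CPM in cKO 1 to 4. The genotypes overlapped, and the log2 fold change was 0.25 (SE 0.14, edgeR adjusted p = 0.321).

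Sarcomeric actins form the thin filament. *Actc1*, the cardiac actin that young skeletal fibres also use, was at 0.599, 0.735, 0.392 and 0.741 CPM in Ctrl 1 to 4 and 3.46, 2.41, 0.924 and 1.96 CPM in cKO 1 to 4. The lowest cKO library, cKO 3, was above the highest Ctrl library. *Actc1* (chromosome 2, 114047282 to 114052875) was at 0.617 ± 0.163 CPM in Ctrl and 2.19 ± 1.05 CPM in cKO (SD, n = 4 each) and rose with a log2 fold change of 1.80 (SE 0.37, edgeR adjusted p = 0.0154). It shared no stretch of 50 bases with another gene. With each library left out in turn it was DE in 7 of 8 fits, the exception being the fit without Ctrl 1 (adjusted p = 0.0572), and it did not pass in limma-voom.

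*Acta1*, the actin of adult skeletal muscle, behaved differently, with far higher levels that did not separate the genotypes. Its levels were 44.2, 70.1, 39.7 and 43.6 CPM in Ctrl 1 to 4 and 51.6, 47.3, 33.1 and 48.9 CPM in cKO 1 to 4. The highest library of all was Ctrl 2 and the lowest was cKO 3. *Acta1* was at 49.4 ± 13.9 CPM in Ctrl and 45.2 ± 8.25 CPM in cKO (SD, n = 4 each), and the log2 fold change was -0.13 (SE 0.20, edgeR adjusted p = 0.762). Per kilobase of exon, *Acta1* stood at 32.2 CPM in Ctrl, against 0.381 CPM for *Actc1*.

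The actinins anchor actin at the Z-disc. *Actn3*, the form of fast fibres, was at 2.30, 3.48, 2.75 and 3.57 CPM in Ctrl 1 to 4 and 5.48, 4.45, 5.21 and 3.96 CPM in cKO 1 to 4. Every cKO library was above every Ctrl library, and the log2 fold change was 0.66 (SE 0.17, edgeR adjusted p = 0.0468). The adjusted p-value of *Actn3* exceeded 0.05 when Ctrl 1, Ctrl 3, cKO 1, cKO 2 or cKO 3 was left out, reaching 0.147. *Actn2*, the form of all skeletal fibres and heart, was between 0.284 and 0.963 CPM in Ctrl and between 0.462 and 1.26 CPM in cKO, with an adjusted p-value of 0.526 by edgeR.

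Troponins make the thin filament sensitive to calcium, and all 6 listed were tested. *Tnnt3*, the tropomyosin-binding subunit of fast fibres, was at 3.25, 3.87, 3.32 and 2.64 CPM in Ctrl 1 to 4 and 5.24, 7.90, 4.90 and 4.59 CPM in cKO 1 to 4. Every cKO library was above every Ctrl library, with cKO 2 the highest, and the log2 fold change was 0.80 (SE 0.19, edgeR adjusted p = 0.0295). The adjusted p-value of *Tnnt3* exceeded 0.05 when Ctrl 1, Ctrl 3, Ctrl 4, cKO 1 or cKO 2 was left out, reaching 0.0901. The slow form *Tnnt1* was at 44.7, 39.1, 36.1 and 36.2 CPM in Ctrl 1 to 4 and 36.5, 41.3, 40.0 and 37.4 CPM in cKO 1 to 4. Its genotypes overlapped, and the log2 fold change was -0.01 (SE 0.08, edgeR adjusted p = 0.968), with a sign that turned when libraries were scaled by their totals.

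The inhibitory subunits hold back contraction until calcium binds. *Tnni2*, the fast form, was at 9.15, 14.0, 9.67 and 8.73 CPM in Ctrl 1 to 4 and 12.5, 12.3, 11.4 and 12.7 CPM in cKO 1 to 4. Ctrl 2 was the highest of all 8 libraries, the log2 fold change was 0.24 (SE 0.14, edgeR adjusted p = 0.350), and without Ctrl 2 its adjusted p-value was 0.0270. *Tnni1*, the slow form, was between 0.193 and 0.439 CPM in Ctrl and between 0.462 and 0.841 CPM in cKO, which did not overlap, with a log2 fold change of 1.12 (SE 0.35, edgeR adjusted p = 0.0849).

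Of the calcium-binding subunits, *Tnnc2*, the fast form, was between 0.143 and 0.412 CPM in Ctrl and between 0.455 and 1.00 CPM in cKO. The ranges did not overlap, and the log2 fold change was 1.29 (SE 0.39, edgeR adjusted p = 0.0759), but 74.0% of its exon bases lie opposite *Ube2c*, a cell cycle gene on the other strand. The strand setting of the counting is not given in the sources used here, so reads of these neighbours may not have been told apart. *Tnnc1*, the slow and cardiac form, was between 0.155 and 0.439 CPM over all 8 libraries, with an adjusted p-value of 0.859 by edgeR.

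**Figure D3:**
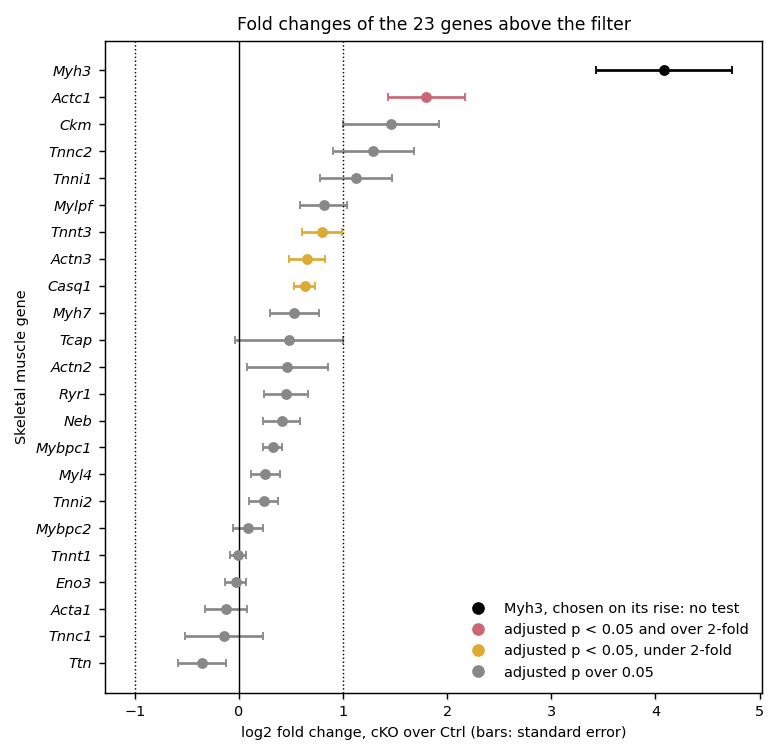
Log2 fold change of cKO over Ctrl (points, with standard error as bars) for the 23 genes tested, ordered by size, with dotted lines at a 2-fold change. *Myh3* (black) is shown as a description, *Actc1* (red) passed both thresholds, *Tnnt3*, *Actn3* and *Casq1* (yellow) had an adjusted p-value under 0.05 with a smaller change, and the other 18 (grey) did not pass.

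Scaffold and Z-disc proteins hold the filaments in register, and none of the 5 tested passed both thresholds by edgeR, DESeq2 or limma-voom. An unadjusted p-value under 0.05 in edgeR was reached by 2 of the 5, against 21.2% of all genes. *Mybpc1*, a myosin-binding protein of slow fibres, had the highest level of the list, also per length, at 162, 186, 131 and 157 CPM in Ctrl 1 to 4 and 183, 207, 198 and 209 CPM in cKO 1 to 4. The genotypes overlapped through Ctrl 2 and cKO 1, and the log2 fold change was 0.32 (SE 0.09, edgeR adjusted p = 0.0613). The adjusted p-value of *Mybpc1* was 0.0475 by edgeR without a filter, 0.0161 by DESeq2 and 0.0622 by limma-voom. *Mybpc2*, its fast form, was at 8.23, 6.61, 9.56 and 11.5 CPM in Ctrl 1 to 4 and 9.79, 9.04, 9.43 and 10.1 CPM in cKO 1 to 4, again with overlap, and its log2 fold change was 0.09 (SE 0.15, edgeR adjusted p = 0.765). The giant proteins are encoded by very long transcripts. Titin (*Ttn*), the spring of the sarcomere, was at 1.77, 1.70, 1.32 and 1.10 CPM in Ctrl 1 to 4 and 1.17, 1.41, 0.863 and 1.16 CPM in cKO 1 to 4. Its genotypes overlapped, with a log2 fold change of -0.36 (SE 0.23, edgeR adjusted p = 0.408). Nebulin (*Neb*), which lines the thin filament, was at 1.64, 1.97, 1.75 and 2.36 CPM in Ctrl 1 to 4 and 2.76, 2.81, 2.16 and 2.59 CPM in cKO 1 to 4. Its genotypes overlapped, and its log2 fold change was 0.41 (SE 0.18, edgeR adjusted p = 0.205). *Tcap*, which caps titin at the Z-disc, did not exceed 0.350 CPM in any library and *Myoz1*, a calcineurin-binding protein of the Z-disc, did not exceed 0.233 CPM.

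Of the 4 calcium handling and energy genes tested, *Casq1* alone had an adjusted p-value under 0.05. This gene encodes calsequestrin, the calcium buffer of the store in fast fibres, and was at 13.4, 12.9, 15.8 and 16.0 CPM in Ctrl 1 to 4 and 21.9, 25.0, 23.4 and 19.8 CPM in cKO 1 to 4. The lowest cKO library was well above the highest Ctrl library. *Casq1* (chromosome 1, 172209894 to 172219895) was at 14.5 ± 1.58 CPM in Ctrl and 22.5 ± 2.22 CPM in cKO (SD, n = 4 each) and rose with a log2 fold change of 0.63 (SE 0.10, edgeR adjusted p = 0.00285), under the 2-fold threshold. Its adjusted p-value stayed between 0.00152 and 0.0156 with each library left out in turn, and 156 of its 1951 exon bases lie opposite another gene. *Casq1* did not follow the order of *Myh3*, since cKO 3 stood at 23.4 CPM, above cKO 1 and cKO 4.

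*Ckm*, the creatine kinase of muscle, had counts of 5, 10, 6 and 15 in Ctrl 1 to 4 and 34, 23, 9 and 27 in cKO 1 to 4. The cKO libraries other than cKO 3 were above all Ctrl libraries, and cKO 3 was within their range. Its log2 fold change of 1.46 (SE 0.46, edgeR adjusted p = 0.0903) did not pass, whereas without cKO 3 the adjusted p-value was 0.0275. *Ryr1*, the calcium release channel, was at 1.23, 1.24, 0.749 and 1.13 CPM in Ctrl 1 to 4 and 1.55, 1.41, 1.54 and 1.47 CPM in cKO 1 to 4. All cKO libraries were above all Ctrl libraries, and the log2 fold change was 0.46 (SE 0.21, edgeR adjusted p = 0.239). *Eno3*, the muscle enolase of glycolysis, was at 11.9, 12.4, 11.7 and 11.3 CPM in Ctrl 1 to 4 and 12.8, 12.4, 10.4 and 10.6 CPM in cKO 1 to 4. The genotypes overlapped and the log2 fold change was -0.03 (SE 0.10, edgeR adjusted p = 0.878). *Pvalb*, the calcium-binding parvalbumin of fast fibres, had 1 count in all, in Ctrl 2.

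Acetylcholine receptor subunits receive the signal of the motor nerve. *Chrna1*, the subunit that binds acetylcholine, had counts of 9, 0, 4 and 0 in Ctrl 1 to 4 and 5, 2, 1 and 0 in cKO 1 to 4. These counts were scattered over both genotypes. *Chrng*, the subunit of fetal receptors, had no count.

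Levels of different genes were compared per kilobase of exon. In Ctrl uteri the highest were *Mybpc1* (35.1 CPM per kilobase), *Acta1* (32.2), *Tnnt1* (17.7), *Casq1* (7.45), *Tnni2* (6.95) and *Eno3* (6.80). Of these only *Casq1* had an adjusted p-value under 0.05 between genotypes by edgeR with the filter and TMM. *Mybpc1* had one by DESeq2 and without a filter, as given above. In cKO uteri *Actc1* was at 1.35 CPM per kilobase, *Myog* at 0.458, *Myl1* at 0.339, *Myh3* at 0.219 and *Myod1* at 0.0944. The sum of all 38 genes was 274.2 to 365.8 CPM in Ctrl and 353.8 to 394.4 CPM in cKO.

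Library cKO 3 was the lowest of the 4 cKO libraries for *Myog*, *Myl1*, *Myh3*, *Myh8*, *Actc1* and *Ckm*, a set put together after the values were seen. Across the 12 genes whose cKO libraries all lay above their Ctrl libraries (the 9 tested, with *Myl1*, *Myod1* and *Myog*), the lowest cKO library was cKO 3 for 7 and the highest was cKO 1 or cKO 2 for 11. The ratio of cKO 1 to cKO 3 was 7.56 for *Myh8*, 7.35 for *Myog*, 6.30 for *Myl1*, 4.76 for *Ckm*, 4.20 for *Myh3* and 3.74 for *Actc1*. It was 1.56 for *Acta1*, 0.934 for *Casq1* and 0.914 for *Tnnt1*. Over all 23 genes tested, the lowest cKO library was cKO 3 for 13, cKO 4 for 5, cKO 1 for 3 and cKO 2 for 2. Each library is 1 uterus, and the genes are not replicates of a condition.

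Fat genes also differed between the cKO libraries, and their order was not that of the muscle genes. The summed level of *Myh3*, *Actc1*, *Myl1*, *Myod1* and *Myog*, a set chosen after their values were seen, was 0.599, 0.812, 0.571 and 0.851 CPM in Ctrl 1 to 4 and 7.81, 6.19, 1.79 and 4.52 CPM in cKO 1 to 4. The summed level of 6 genes that define adipocytes (*Fabp4*, *Adipoq*, *Plin1*, *Cidec*, *Cfd* and *Lep*) was 1.26, 2.98, 2.35 and 0.988 CPM in Ctrl and 83.8, 202.3, 90.1 and 1.93 CPM in cKO. In cKO 4 the sum of the adipocyte genes was within the Ctrl range, although *Fabp4* alone (1.61 CPM) was above the highest Ctrl library (1.43 CPM). In the same library *Myog* had 14 counts and *Myh3* had 42, against 2 and 9 over the 4 Ctrl libraries together. *Actc1* stood at 3.18 times the Ctrl mean. These genes were chosen with their values known, so their levels describe cKO 4 and test nothing. In cKO 3, with adipocyte genes as high as in cKO 1, the muscle sum was the lowest of the 4. Of the 13 fat genes tested, 1 (*Adrb3*, at 2.10 CPM in cKO 4 against at most 1.18 CPM in Ctrl) was DE by edgeR. By limma-voom 2 were DE and by DESeq2 8. The shares of all genes DE were 1.30% by edgeR, 1.22% by limma-voom and 1.59% by DESeq2. An unadjusted p-value under 0.05 in edgeR was reached by 11 of the 13, against 21.2% of all genes.

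**Figure D4:**
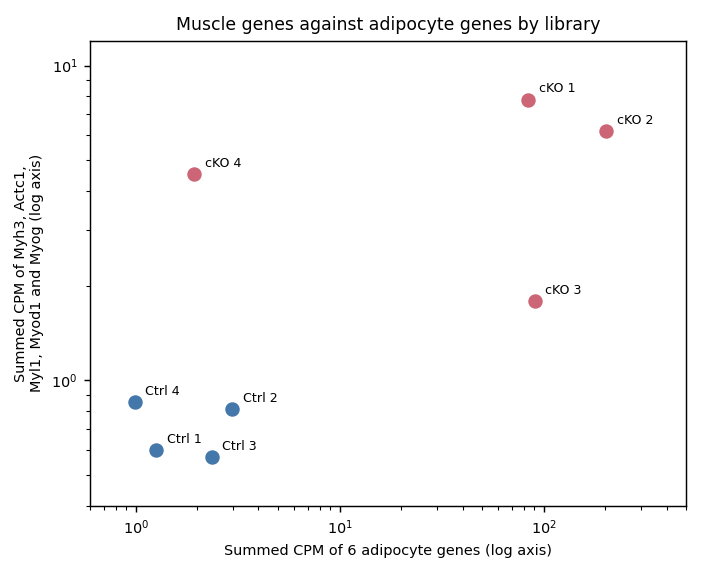
Summed CPM of *Myh3*, *Actc1*, *Myl1*, *Myod1* and *Myog* (vertical, log axis) against summed CPM of 6 adipocyte genes (horizontal, log axis), 1 point per library, Ctrl in blue and cKO in red. The 5 genes were chosen after their values were seen, which fixes the gap on the vertical axis (1.79 to 7.81 against 0.571 to 0.851 CPM). What can be read is the order of the cKO libraries, and that cKO 4 lies among the Ctrl libraries on the horizontal axis.

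Other skeletal muscle genes were read from a second list of 52 genes, of which 31 were tested. By edgeR, 2 of the 31 were DE, both higher and among them *Trim63*, against 1.30% of all genes DE in either direction and 0.666% DE and higher. An adjusted p-value under 0.05 was reached by 6, all higher, against 5.34% of all genes. DESeq2 called 3 DE and 8 by the adjusted p-value alone, against 1.59% and 9.04% of all genes, and limma-voom called 1 and 2, against 1.22% and 4.98%. The median log2 fold change of the 31 was 0.29 and that of all genes tested was 0.00044. For the 22 genes tested of the first list other than *Myh3* it was 0.46. *Trim63*, a ubiquitin ligase of the sarcomere, was at 0.315, 0.387, 0.178 and 0.220 CPM in Ctrl 1 to 4 and 0.854, 0.736, 0.986 and 0.420 CPM in cKO 1 to 4 and rose with a log2 fold change of 1.45 (SE 0.36, edgeR adjusted p = 0.0345). *Six4*, a homeobox factor of early muscle, was at 15.2 ± 0.731 CPM in Ctrl and 23.1 ± 1.49 CPM in cKO (SD, n = 4 each) and rose with a log2 fold change of 0.60 (SE 0.08, edgeR adjusted p = 0.000720). *Lmod3*, which nucleates actin filaments, was under the filter with counts of 0, 0, 1 and 0 in Ctrl and 6, 13, 1 and 5 in cKO, and was named after its values were seen.

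Markers of other cell types were read beside these values. Of 10 heart genes, 4 were tested and none was DE by edgeR, DESeq2 or limma-voom. An unadjusted p-value under 0.05 in edgeR was reached by 3 of the 4, against 21.2% of all genes. *Myh6* was at a log2 fold change of 0.99 (SE 0.22, edgeR adjusted p = 0.0230). *Tnnt2*, cardiac troponin T, was at 0.48 (SE 0.10, edgeR adjusted p = 0.0136). These 2 of the 4 had an adjusted p-value under 0.05, against 5.34% of all genes. Of 10 genes of nerve and its Schwann cells, all tested, *Foxd3* and *Cdh19* were DE and higher by edgeR, at log2 fold changes of 1.27 and 1.02, *Sox10* was higher at 0.92 and *Egr2* lower at -0.78, both under 2-fold with an edgeR adjusted p-value under 0.05. By edgeR these are 2 of 10 DE and 4 of 10 with an adjusted p-value under 0.05, against 1.30% and 5.34% of all genes. DESeq2 and limma-voom each called 1 of the 10, against 1.59% and 1.22% of all genes. Without a filter the edgeR adjusted p-value of *Foxd3* was 0.0584. None of 6 red blood cell genes and none of 11 PRC2 genes tested was DE by edgeR, DESeq2 or limma-voom, and none had an unadjusted p-value under 0.05 in edgeR. The part of adipocyte, heart or nerve tissue in the higher muscle genes was not tested. *Myh1*, *Myh2*, *Myh4* and *Pvalb* together had 0 to 2 counts in each Ctrl library and 2 or 3 in each cKO library, and the levels of the other genes of fast fibres are those given above.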

How the data were processed

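RNA-seq was performed on whole uteri of 4 Ctrl and 4 cKO mice at PD10. The authors trimmed reads with Trimmomatic, checked them with FastQC, aligned them to GRCm38 with HISAT2 and deposited raw counts per Entrez gene from featureCounts. The versions, annotation release, strand setting and treatment of multi-mapping reads are not given in the sources used here. The deposited counts were compared with edgeR 4.0.16 in R 4.3.3 (limma 3.58.1 and DESeq2 1.42.0 as alternatives), with a filter (CPM over 0.2 in 4 or more libraries), TMM, robust = TRUE and Benjamini-Hochberg adjustment (over 16658 genes), as the study's methods state, and with glmQLFit and glmQLFTest, which they do not name. The authors' comparison table (fold changes and p-values) was used for gene symbols only. Symbols were available for 25440 of 27179 genes.

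The members and lists were chosen with earlier results of these data known. Values in every library were given for those of the 38 genes with a mean of at least 1 CPM in a genotype and for those that were DE. *Myog*, *Myod1*, *Myl1*, *Myh8* and *Ckm* were detailed after their values were seen. Genes of the further lists were to be named where DE, and others of those lists, such as *Six4*, *Lmod3*, *Fabp4*, *Sox10* and *Egr2*, were named after their values were seen. Intervals of pooled counts are exact binomial at a confidence level of 0.95. Shared stretches of 50 bases and exon overlaps were computed on GENCODE transcripts of GRCm38, and promoters came from RefSeq. No 2 libraries agreed within sampling noise (chi-square per gene from 7.78 to 31.8 over 28 pairs). The labels give no batch. Alternatives were other scalings, filters, tests, a replicate block, a prior count of 2, and leaving out each library. A filter asking for 3 libraries was chosen after seeing the data. Some genes of the further lists are not reported here.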

Additional observations from a re-analysis of the deposited data

Results flagged for a closer look

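In the Ctrl group, the *Acta1* level of Ctrl 2 (70.1 CPM) stood apart from the others (39.7 to 44.2 CPM). Its gap to the nearest library was 0.850 of the range of the group, past the 95% limit of Dixon's test for 4 samples. It was 1 of 46 groups tested, of which chance alone marks about 1 in 20. The genotypes overlapped for *Acta1* with or without this library, and without each library in turn its log2 fold change lay between -0.22 and 0.09.

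Among the genes under the filter on low counts, which were left out of the comparison between genotypes, 3 had every cKO library above every Ctrl library. The mean in cKO was 0.702 CPM for *Myl1*, 0.176 CPM for *Myod1* and 0.684 CPM for *Myog*, against 0 CPM for *Myl1* and *Myod1* and 0.0186 CPM for *Myog* in Ctrl. Their counts in cKO 3 were 6, 4 and 6.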

How the results depend on the processing

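Past both thresholds were 2 of the 23 genes tested, against 1.30% of all genes. *Myh3* is included here and in the counts that follow. There were 5 of 35 when genes were not filtered (1.10%). With the filter asking for 3 libraries, chosen after seeing the data, there were 4 of 26 (1.34%). With CPM over 1 in at least 4 libraries there were 0 of 15 (0.962%). In that fit 8 of the 15 had an unadjusted p-value under 0.05 in edgeR, against 21.7% of all genes. Of 23 tested, limma-voom gave 1 (1.22%) and DESeq2 gave 2 (1.59%). Each library left out gave 2 to 6 of 23 or 26 tested (0.840% to 2.12%). An adjusted p-value under 0.05 was reached by 5, against 5.34% of all genes, with 10 without a filter (4.46%), 3 with CPM over 1 (5.48%), 3 with limma-voom (4.98%), 7 with DESeq2 (9.04%) and 3 to 9 with each library left out (2.43% to 10.8%). There were 9 without Ctrl 2 (5.73%) or cKO 3 (3.21%) and 3 without cKO 1 (2.74%) or cKO 2 (2.91%). The median log2 fold change of 0.46, also 0.46 for the 22 genes other than *Myh3*, was 0.33 with CPM over 1, where *Myh3* was not tested, and 0.38 to 0.61 with each library left out. The log2 fold change of *Myh3* (4.08) was 3.30 with a prior count of 2 and 3.67 to 4.53 with each library left out. The cause of these differences was not tested, apart from the number of genes that each filter lets through. A replicate block gave 3 genes past both thresholds (1.52% of all genes), adding *Ckm*, and 7 with an adjusted p-value under 0.05 (7.44%), but libraries with the same number did not deviate together (correlations of 0.00965, 0.104, 0.00510 and 0.185, and not every library was closest to its own number), so the numbers were read as names and not as pairs. Other scalings moved the median of all genes by at most 0.01 and turned the sign of *Tnnt1* alone. With 3 counts worth 0.0824 to 0.117 CPM, differences in genes at or below that level, such as *Myh1*, *Myh2*, *Myh4* and *Myf5*, were not detectable at this depth.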
